A study of Mus musculus with 15 samples.

Results

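Microglia are the resident macrophages of the brain. The 9 genes followed here are Csf1r, Laptm5, C1qa, C1qb, C1qc, Ctss, Fcrls, Cx3cr1 and Tyrobp, transcripts by which microglia are commonly recognised, read in cells that had been sorted as astroglia. They were taken by gene symbol from the array annotation, with 1 probe set per gene, the one with the highest mean over the 15 arrays. All 9 were found among 18193 genes measured this way. The arrays carried RNA of cells from male Gli1-CreER;GFAP-GFP;R26tdTomato mice of 6 to 8 weeks, in 3 groups of 5 arrays. One group came from the neurogenic subventricular zone of the lateral ventricles (SVZ), another from hippocampus and the last from cerebellum. All groups had the same genotype and the same tamoxifen, 2 doses of 10 mg, which turns on the red tdTomato reporter for good in cells with an active Gli1 gene, a target of the Sonic hedgehog signal. After 3 weeks cells with both the Gli1 label and GFAP, read by the green protein of the GFAP-GFP transgene, were sorted, and 10 to 12 mice were pooled per array, so that each value is that of a pool. The labels do not say whether arrays of different regions came from the same mice, and p values measure the spread between these pools.

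Microglia arise from the yolk sac, apart from the neural lineage that the reporters of this sort mark, and depend throughout life on the receptor Csf1r, which binds the cytokines Csf1 and IL-34. They are the main source of the complement protein C1q in the brain, which tags synapses and debris for removal, and they read signals from neurons through the fractalkine receptor Cx3cr1. Tyrobp, also called DAP12, carries the signal of several microglial surface receptors into the cell. Closely related macrophages lie along vessels, in the meninges and in the choroid plexus, and share many of these genes.

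Levels are RMA-normalized values read as log2 signal. The medians of single arrays lay between 1.12 and 1.31, which is low for RMA, and neither the log base nor any scaling after RMA is stated, so the printed folds hold only for a plain log2 scale. By these medians, values near 1 are at the level of most probe sets, and 3 is used as the lower bound for a clear signal. Poly-A spike-in probe sets read 12.59 ± 0.86 on SVZ arrays, 12.47 ± 0.57 on hippocampus arrays and 10.30 ± 1.64 on cerebellum arrays (mean ± SD, n = 5 each). The share of probe sets above 3 was 15.0% to 19.4% on SVZ arrays, 15.1% to 19.7% on hippocampus arrays and 20.0% to 22.4% on cerebellum arrays. Both measures thus moved with region, and their part in the differences below was not tested beyond the fit with the spike-in level as a covariate. The astrocyte list read high everywhere, with a median summed level of 13.74 on SVZ arrays, 13.52 on hippocampus arrays and 13.88 on cerebellum arrays (log2 of the summed signals of 15 genes). Single astrocyte genes moved with region: 3 were higher and 2 lower in SVZ than in cerebellum, among them Ntsr2 (1.25 ± 0.30, adjusted p = 0.0276), Glul (0.92 ± 0.22, adjusted p = 0.0279), S100b (-3.41 ± 0.42, adjusted p = 0.000254) and Slc1a3 (-1.83 ± 0.35, adjusted p = 0.00767). In hippocampus 1 was higher, Clu (0.78 ± 0.16, adjusted p = 0.0103), and 3 were lower, among them S100b (-3.67 ± 0.42, adjusted p = 0.000118) and Slc1a3 (-2.16 ± 0.35, adjusted p = 0.00244). Their part in the differences below was not tested. Gfap averaged 4.51 ± 1.06 on SVZ arrays, 6.93 ± 0.63 on hippocampus arrays and 4.99 ± 1.23 on cerebellum arrays, and Gli1 2.80 ± 1.31, 2.83 ± 1.91 and 3.17 ± 0.35 in the same order (SD, n = 5 each). Neither sort gene passed in any comparison.

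Each of the 9 microglial genes had a higher mean in both forebrain regions than in cerebellum, and not all of these differences passed the test. In SVZ against cerebellum 5 of the 9 rose, namely Csf1r, Laptm5, C1qa, Ctss and Fcrls, and C1qb, C1qc, Cx3cr1 and Tyrobp did not pass (limma, adjusted p under 0.05 over all 18193 genes). Genes called higher made up 1.03% of all genes in that comparison, and those called in either direction 5.51%. For Csf1r, Laptm5 and C1qa every SVZ array lay above every cerebellum array, which held for 2.6% of all genes. Csf1r and Laptm5 rose in hippocampus against cerebellum, where 0.808% of all genes were called higher and 4.78% in either direction. Both had every hippocampus array above every cerebellum array, as 2.68% of all genes did. In SVZ against hippocampus 0 of the 9 passed, where 0.022% of all genes were called in either direction and 0.0165% as higher in SVZ. Of the 9 genes 0 had all SVZ arrays above all hippocampus arrays, against 0.374% of all genes, and 1 of 9, C1qa, had an unadjusted p under 0.05 in limma. The median log2 difference of the 9, with C1qa and C1qc at their fitted values, was 3.45 in SVZ against cerebellum, 2.02 in hippocampus against cerebellum and 1.20 in SVZ against hippocampus, and that of all genes was 0.07, 0.07 and 0.00. Both cerebellum comparisons share the 5 cerebellum arrays. In bulk RNA, fewer microglia and less of these transcripts per cell cannot be told apart. The calls moved with the arrays entered: the SVZ count against cerebellum was 8 without SVZ 1, and 3 without SVZ 5, cerebellum 2, cerebellum 4 or cerebellum 5. Between hippocampus and cerebellum it was 1 without hippocampus 3, cerebellum 2 or cerebellum 4, and with the spike-in level as a covariate both counts were 0 although each difference stayed positive.

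**Figure D1:**
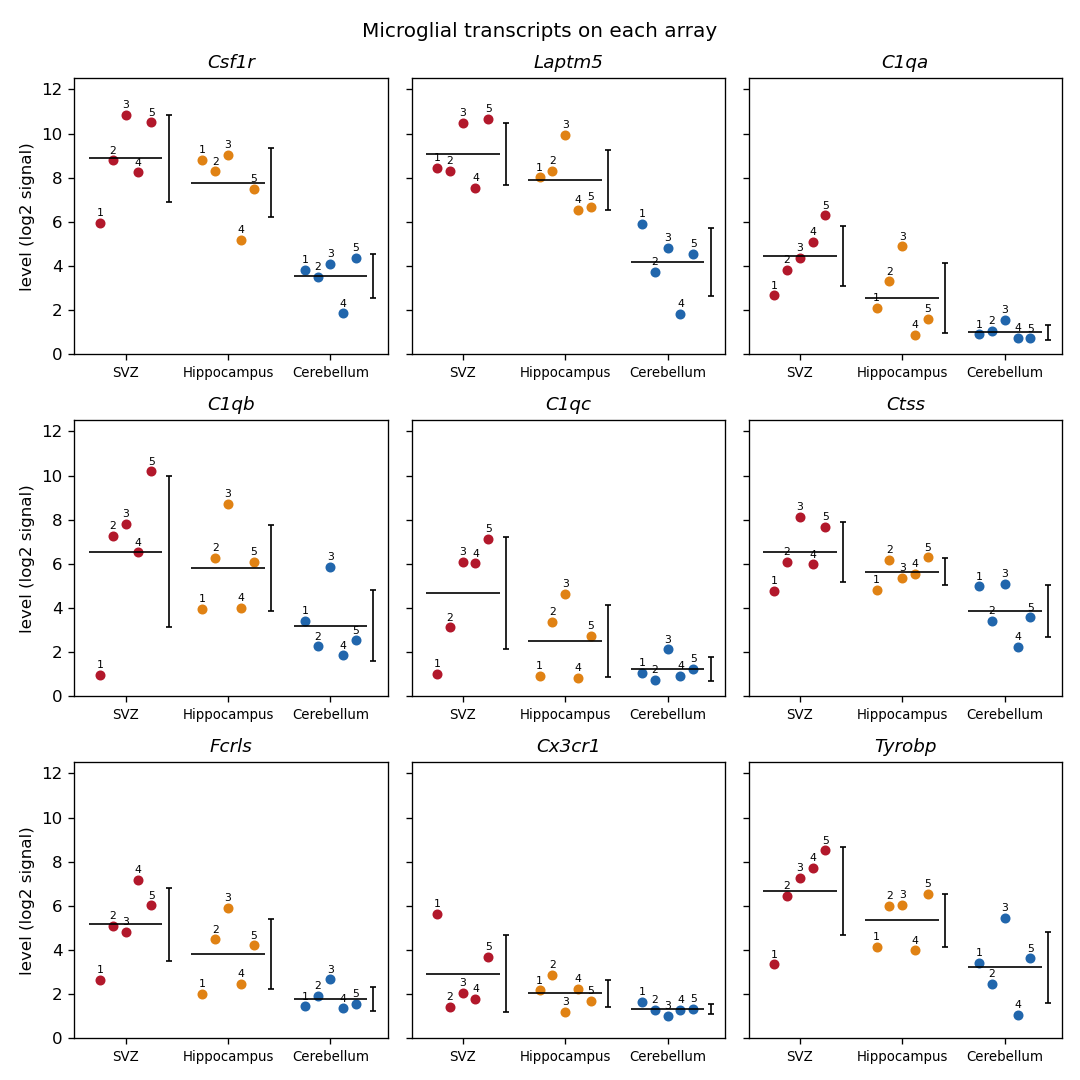
Level of each of the 9 microglial genes (vertical axis, log2 signal) on every array of SVZ, hippocampus and cerebellum (horizontal axis), with points numbered by replicate, black lines for region means and bars for ± SD (n = 5). For Csf1r and Laptm5 every SVZ and hippocampus point lies above every cerebellum point, while for Cx3cr1 the highest point is SVZ 1, the array at which 7 of the other 8 genes have their lowest SVZ value.

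Csf1r, the receptor tyrosine kinase that microglia need to survive, was measured by probe set 1419872_at. It read 5.97, 8.79, 10.86, 8.25 and 10.51 in the 5 SVZ pools, 8.81, 8.29, 9.05, 5.18 and 7.49 in those of hippocampus and 3.84, 3.52, 4.10, 1.85 and 4.37 in those of cerebellum. The lowest forebrain value, 5.18 on hippocampus 4, stood above the highest cerebellum value, 4.37 on cerebellum 5. The log2 difference was 5.34 ± 0.92 in SVZ (SE of the limma fit, adjusted p = 0.00340), a 40.5-fold difference with a 95% interval of 10.4 to 158 fold. In hippocampus it was 4.23 ± 0.92 (adjusted p = 0.0162), an 18.7-fold difference. SVZ and hippocampus overlapped, at 1.11 ± 0.92 (adjusted p = 0.797), with an interval from -0.85 to 3.08 on the log2 scale. Leaving out single arrays kept both calls against cerebellum, at an adjusted p of 0.000836 to 0.0114 for SVZ and of 0.00572 to 0.0488 for hippocampus. The spike-in covariate left a difference of 5.10 for SVZ (adjusted p = 0.105) and one of 4.00 for hippocampus (adjusted p = 0.227).

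Csf1, a ligand of Csf1r, averaged 2.52 ± 1.39 on SVZ arrays, 4.75 ± 0.85 on hippocampus arrays and 3.74 ± 1.07 on cerebellum arrays (SD, n = 5 each) and did not pass in any comparison, with an adjusted p of 0.478 for SVZ against hippocampus. Il34, the gene of the other ligand, stayed under 3 on every array, as did Cx3cl1, the ligand of Cx3cr1. Of 11 ligand and partner genes, 0 were called in each comparison by limma. At an unadjusted p under 0.05 the smallest were Csf2ra (-0.66 ± 0.25, adjusted p = 0.155) and Fcer1g (1.56 ± 0.62, adjusted p = 0.170) in SVZ against cerebellum. Between hippocampus and cerebellum they were Hcst (0.66 ± 0.22, adjusted p = 0.117) and Csf2ra (-0.68 ± 0.25, adjusted p = 0.150). Csf2ra and Hcst stayed under 3 on every array, as 9 of the 11 genes did. Fcer1g encodes the signalling chain shared by Fc receptors, and Hcst, also called DAP10, is an adaptor related to Tyrobp.

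Laptm5, a lysosomal membrane protein of blood-derived and microglial cells, was measured by 1436905_x_at. It read 8.46, 8.31, 10.50, 7.54 and 10.66 in the 5 SVZ pools, 8.02, 8.31, 9.93, 6.54 and 6.69 in those of hippocampus and 5.92, 3.74, 4.83, 1.83 and 4.56 in those of cerebellum. Again no forebrain array overlapped the cerebellum arrays, whose highest value was 5.92. The difference was 4.92 ± 0.85 for SVZ (adjusted p = 0.00345, 30.2-fold) and 3.72 ± 0.85 for hippocampus (adjusted p = 0.0212, 13.2-fold), and 1.20 ± 0.85 between SVZ and hippocampus (adjusted p = 0.774). The hippocampus call was lost without hippocampus 3 (adjusted p = 0.0525), cerebellum 2 (0.0568) or cerebellum 4 (0.0528). With the spike-in covariate the differences were 3.78 (adjusted p = 0.182) and 2.64 (adjusted p = 0.418).

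The probe sets of these genes did not read alike. The 9 genes had 18 probe sets, of which the 9 further ones belonged to Csf1r, Laptm5, C1qb and Cx3cr1. All 9 further sets were higher on average in SVZ and in hippocampus than in cerebellum, by 0.24 to 2.84 and by 0.11 to 2.48, and 0 passed (smallest adjusted p = 0.0622 and 0.110 over all probe sets, limma). Of these, 7 had a mean under 3, among them all 4 further sets of Laptm5. When the probe sets of each gene were averaged, the SVZ difference was 3.24 for Csf1r (adjusted p = 0.00978) and 1.68 for Laptm5 (adjusted p = 0.00604), and in hippocampus it was 2.36 (adjusted p = 0.0556) and 1.06 (adjusted p = 0.0731). By the naming of the array's maker, sets that end in x_at, as those used for Laptm5 and C1qb do, can share probes with other transcripts.

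**Figure D2:**
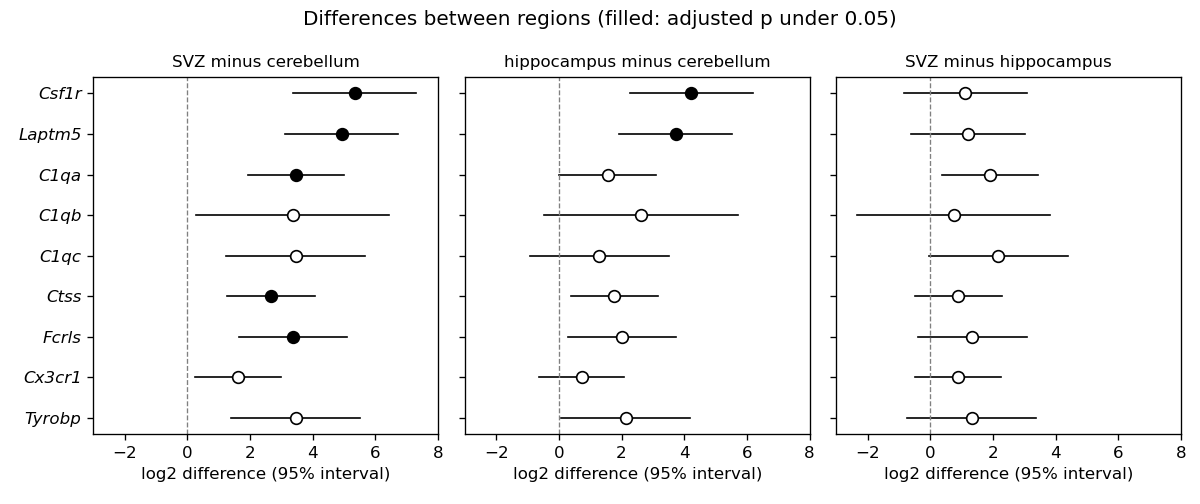
Log2 difference (horizontal axis) with its 95% interval for each gene (vertical axis) in SVZ minus cerebellum, hippocampus minus cerebellum and SVZ minus hippocampus, from limma over 15 arrays. Filled points, 5 in the left panel and 2 in the middle one, had an adjusted p under 0.05, and every point lies right of 0.

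C1q is built from the products of C1qa, C1qb and C1qc, which lie side by side on mouse chromosome 4 in the order C1qb, C1qc, C1qa. C1qa, measured by 1417381_at, read 2.68, 3.84, 4.38, 5.09 and 6.30 in the 5 SVZ pools, 2.10, 3.30, 4.89, 0.88 and 1.60 in those of hippocampus and 0.91, 1.05, 1.56, 0.74 and 0.73 in those of cerebellum. All SVZ arrays stood above all cerebellum arrays, which read at background, so that differences from cerebellum are lower limits for C1qa, and likewise for C1qc. The difference was 3.46 ± 0.72 for SVZ (adjusted p = 0.0116), 1.56 ± 0.72 for hippocampus (adjusted p = 0.243) and 1.90 ± 0.72 between SVZ and hippocampus (adjusted p = 0.590). The SVZ call held when single arrays were left out (adjusted p at most 0.0333).

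C1qb, measured by 1437726_x_at, read 0.96, 7.28, 7.81, 6.52 and 10.19 in the 5 SVZ pools, 3.97, 6.27, 8.71, 4.01 and 6.09 in those of hippocampus and 3.43, 2.27, 5.88, 1.85 and 2.53 in those of cerebellum. SVZ 1 lay at background while the other 4 SVZ arrays stood above all cerebellum arrays. The difference was 3.36 ± 1.44 for SVZ (adjusted p = 0.201) and 2.62 ± 1.44 for hippocampus (adjusted p = 0.318). Without SVZ 1 it was 4.76 in SVZ (adjusted p = 0.0239). C1qc, measured by 1449401_at, read 1.03, 3.13, 6.08, 6.03 and 7.14 in the 5 SVZ pools, 0.94, 3.39, 4.65, 0.83 and 2.75 in those of hippocampus and 1.06, 0.76, 2.13, 0.93 and 1.24 in those of cerebellum. Its pattern was the same, with SVZ 1 among the cerebellum values, 2 hippocampus arrays at background and the cerebellum arrays at 2.13 or less. The difference was 3.46 ± 1.04 for SVZ (adjusted p = 0.0701, and 0.0108 without SVZ 1) and 1.29 ± 1.04 for hippocampus (adjusted p = 0.489). SVZ and hippocampus differed by 0.74 ± 1.44 for C1qb (adjusted p = 0.917) and by 2.17 ± 1.04 for C1qc (adjusted p = 0.706).

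Of 13 other complement genes measured, 0 were called in any comparison by limma. C3ar1, the receptor for the C3a fragment, averaged 3.37 ± 2.13 in SVZ, 1.65 ± 0.95 in hippocampus and 0.92 ± 0.19 in cerebellum (SD, n = 5 each). Its difference was 2.45 ± 0.80 in SVZ against cerebellum (adjusted p = 0.0930). C5ar1, the receptor for C5a, averaged 6.10 ± 2.90, 5.32 ± 2.63 and 2.49 ± 1.39 in the same order, with 3.61 ± 1.41 for SVZ (adjusted p = 0.161) and 2.83 ± 1.41 for hippocampus (adjusted p = 0.276). Both genes had an unadjusted p under 0.05 in SVZ against cerebellum. C5ar1 on SVZ 1 read 1.25, against 6.10 to 8.87 on the other SVZ arrays, the same contrast as in C1qb.

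Macrophage genes are commonly driven by PU.1 and other factors of the ETS family, whose recognition sequence holds a GGAA core. The windows of 300 bases around the start sites (250 before, 50 after) were available for 6 of the 9 genes from RefSeq, build GRCm38.p6, and 4 are shown because they belong to C1q genes that varied together, to a cathepsin gene, and to Cx3cr1, whose window holds no such match. Capitals mark GGAAGT or its reverse complement ACTTCC.
C1qb, chr4:136886151-136886450, minus strand: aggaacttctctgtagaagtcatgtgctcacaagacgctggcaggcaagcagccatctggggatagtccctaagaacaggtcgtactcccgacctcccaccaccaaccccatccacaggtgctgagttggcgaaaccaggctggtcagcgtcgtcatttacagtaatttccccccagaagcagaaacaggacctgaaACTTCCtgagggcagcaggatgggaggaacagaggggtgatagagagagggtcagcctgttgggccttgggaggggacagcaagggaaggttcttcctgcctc
C1qc, chr4:136892865-136893164, minus strand: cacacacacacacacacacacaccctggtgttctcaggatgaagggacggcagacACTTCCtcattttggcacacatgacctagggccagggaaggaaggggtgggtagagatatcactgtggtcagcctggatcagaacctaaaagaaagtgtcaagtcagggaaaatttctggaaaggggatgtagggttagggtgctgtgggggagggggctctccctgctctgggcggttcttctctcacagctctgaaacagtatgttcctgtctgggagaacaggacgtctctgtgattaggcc
Ctss, chr3:95526536-95526835, plus strand: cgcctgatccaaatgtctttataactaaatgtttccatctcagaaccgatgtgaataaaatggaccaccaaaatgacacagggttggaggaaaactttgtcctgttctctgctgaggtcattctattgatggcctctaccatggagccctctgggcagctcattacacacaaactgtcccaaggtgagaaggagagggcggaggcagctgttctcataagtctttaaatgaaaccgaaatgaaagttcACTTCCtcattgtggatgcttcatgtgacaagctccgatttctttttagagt
Cx3cr1, chr9:120068247-120068546, minus strand: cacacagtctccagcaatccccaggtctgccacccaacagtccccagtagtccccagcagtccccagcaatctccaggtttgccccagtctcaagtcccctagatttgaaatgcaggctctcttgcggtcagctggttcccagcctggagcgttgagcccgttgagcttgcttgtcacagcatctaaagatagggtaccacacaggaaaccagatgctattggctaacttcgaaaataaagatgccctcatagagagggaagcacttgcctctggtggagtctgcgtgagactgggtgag
GGAAGT on either strand was present in 5 of 6 windows (C1qb, C1qc, Ctss, Fcrls and Laptm5, once each) and in 23.8% of 32851 promoter windows of the same length. The longer AGGAAGT, which contains it, was in 4 of 6, against 9.4% of all windows, and GAGGAAGT, which contains both, in 2 of 6, C1qc and Ctss, against 3.2%. TATAAA was in 3 of 6 windows (Ctss, Fcrls and Laptm5), against 13.6%. These patterns were picked with the windows in view, and a match is a string of letters, not a shown binding site.

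Ctss encodes cathepsin S, a lysosomal protease of antigen-presenting cells, and was measured by 1448591_at. It read 4.78, 6.09, 8.12, 5.98 and 7.68 in the 5 SVZ pools, 4.81, 6.17, 5.36, 5.54 and 6.30 in those of hippocampus and 4.99, 3.41, 5.09, 2.25 and 3.58 in those of cerebellum. The cerebellum arrays reached 5.09 and overlapped the lowest forebrain values. The difference was 2.67 ± 0.65 for SVZ (adjusted p = 0.0281), 1.77 ± 0.65 for hippocampus (adjusted p = 0.148) and 0.89 ± 0.65 between SVZ and hippocampus (adjusted p = 0.778). The SVZ call was lost without SVZ 3 (adjusted p = 0.0585), SVZ 5 (0.0668), cerebellum 2 (0.0713), cerebellum 4 (0.0715) or cerebellum 5 (0.0713).

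Other lysosomal genes split. Of 20 measured, 2 were higher and 1 lower in SVZ against cerebellum. Cst3, which encodes the cathepsin inhibitor cystatin C and is abundant in astrocytes, was higher by 1.41 ± 0.19 (adjusted p = 0.000629), and Ctsh, cathepsin H, by 1.87 ± 0.47 (adjusted p = 0.0324). Ctsl, cathepsin L, was lower by -1.71 ± 0.43 (adjusted p = 0.0323). In hippocampus Cst3 was higher than in cerebellum by 1.37 ± 0.19 (adjusted p = 0.000727) and Lamp1, a lysosomal membrane protein gene, lower by -1.22 ± 0.32 (adjusted p = 0.0450). The median difference of the 20 was -0.09 in SVZ and -0.31 in hippocampus, against 0.07 over all genes in both.

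Fcrls, a scavenger receptor gene related to the Fc receptors and in mice a marker of microglia, was measured by 1448891_at. It read 2.66, 5.10, 4.82, 7.18 and 6.03 in the 5 SVZ pools, 2.01, 4.48, 5.90, 2.47 and 4.21 in those of hippocampus and 1.45, 1.94, 2.68, 1.36 and 1.55 in those of cerebellum. SVZ 1 at 2.66 overlapped cerebellum 3 at 2.68, and the other 4 SVZ arrays stood above all cerebellum arrays. The difference was 3.36 ± 0.80 for SVZ (adjusted p = 0.0253), 2.02 ± 0.80 for hippocampus (adjusted p = 0.182) and 1.34 ± 0.80 between SVZ and hippocampus (adjusted p = 0.740). The SVZ call was lost without SVZ 4 (adjusted p = 0.0547), SVZ 5 (0.0591), cerebellum 1 (0.0559), cerebellum 2 (0.0533), cerebellum 4 (0.0628) or cerebellum 5 (0.0633).

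Tyrobp was measured by 1450792_at and read 3.35, 6.46, 7.27, 7.72 and 8.52 in the 5 SVZ pools, 4.15, 6.01, 6.05, 3.98 and 6.55 in those of hippocampus and 3.41, 2.47, 5.47, 1.07 and 3.63 in those of cerebellum. Cerebellum 3, at 5.47, lay within the range of both forebrain groups, and the other cerebellum arrays read 3.63 or less. The difference was 3.45 ± 0.96 for SVZ (adjusted p = 0.0514), 2.14 ± 0.96 for hippocampus (adjusted p = 0.232) and 1.32 ± 0.96 between SVZ and hippocampus (adjusted p = 0.778). In SVZ it passed without SVZ 1 (4.28, adjusted p = 0.00837), without cerebellum 3 (4.02, adjusted p = 0.0320) and with quantile normalization (3.88, adjusted p = 0.0260). Trem2, the receptor that signals through Tyrobp in microglia, stayed under 3 on every array.

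Cx3cr1 was measured by 1450020_at and read 5.65, 1.44, 2.07, 1.79 and 3.69 in the 5 SVZ pools, 2.17, 2.87, 1.21, 2.25 and 1.71 in those of hippocampus and 1.64, 1.29, 1.03, 1.28 and 1.35 in those of cerebellum. It was near background on most arrays, with values above 3 on SVZ 1 and SVZ 5. The difference was 1.61 ± 0.64 for SVZ (adjusted p = 0.167), 0.72 ± 0.64 for hippocampus (adjusted p = 0.53) and 0.89 ± 0.64 between SVZ and hippocampus (adjusted p = 0.777). Without SVZ 1 it was 0.93 against cerebellum (adjusted p = 0.242) and 0.21 against hippocampus (adjusted p = 0.911). Cx3cr1 passed in SVZ under none of the alternative fits that were run (adjusted p 0.0885 to 0.787). The second Cx3cr1 probe set averaged 1.11 ± 0.12, 1.05 ± 0.25 and 0.86 ± 0.18 in SVZ, hippocampus and cerebellum (SD, n = 5 each).

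In each of the 9 genes the mean was highest in SVZ, next in hippocampus and lowest in cerebellum. SVZ and hippocampus did not pass for any of them (adjusted p 0.590 to 0.917), though the unadjusted 95% interval for C1qa, 0.37 to 3.44, lay above 0. The order of these regions turned for C1qb without SVZ 5 (-0.17, SVZ minus hippocampus) and for Cx3cr1 without SVZ 1 and hippocampus 3 (-0.0025). The mean of the 9 genes per array gives the same order, at 6.10 ± 1.47 in SVZ, 4.82 ± 1.06 in hippocampus and 2.59 ± 0.81 in cerebellum (SD, n = 5 each). It ran over 3.95, 5.60, 6.88, 6.23 and 7.86 in the SVZ pools, 4.11, 5.45, 6.19, 3.52 and 4.82 in the hippocampus pools and 2.96, 2.27, 3.64, 1.46 and 2.62 on the cerebellum arrays. Hippocampus 4 at 3.52 fell below cerebellum 3 at 3.64, so that hippocampus and cerebellum overlapped, whereas SVZ and cerebellum did not. Of the 45 gene values per region, 38 were above 3 in SVZ, 32 in hippocampus and 17 in cerebellum.

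Values also varied between pools of one region. The median SD of the 9 genes over SVZ pools was 1.75, over hippocampus pools 1.56 and over cerebellum pools 0.99, and that of the 4816 genes with a mean above 3 was 1.00, 1.00 and 0.48. Single arrays stood out for many of the genes at once. SVZ 1 gave the lowest SVZ value for 7 of the 9 and SVZ 5 the highest for 5. Hippocampus 3 gave the highest hippocampus value for 6 and hippocampus 4 the lowest for 5. Cerebellum 3 gave the highest cerebellum value for 6 and cerebellum 4 the lowest for 6. SVZ 1 was also the lowest SVZ array by the summed level of other lists described here. These were the other microglial, border macrophage, activation, ligand and partner, complement, lysosomal, endothelial, neuronal and sort genes. It was not the lowest for the astrocyte, oligodendrocyte, oligodendrocyte precursor, ependymal, choroid plexus, red blood cell or blood leukocyte genes. The share of probe sets above 3 was lowest among SVZ arrays on SVZ 1, at 15.0%, and lowest among hippocampus arrays on hippocampus 3, at 15.1%. Its part in the values of these arrays was not tested.

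This covariation was described by Pearson correlations over the 15 arrays after the mean of each region was subtracted. The arrays share the region they were centred on, and the 2 values of a pair come from the same pool, amplification and array. Among the 28 pairs without Cx3cr1, r ran from 0.25 (Laptm5 with Fcrls) to 0.88 (C1qb with Tyrobp), with a median of 0.71. The 3 pairs of C1q chains had r of 0.80 to 0.88. Between the mean of the 9 and the 4810 other genes with a mean above 3 the median r was 0.04. Cx3cr1 ran the other way, with r of -0.58 to 0.03 to the other 8 genes. That opposite course rests on 1 array: without SVZ 1, where Cx3cr1 read 5.65 and C1qb 0.96, the r of Cx3cr1 ran from -0.21 to 0.34, and the 28 other pairs had a median of 0.60 (0.11 to 0.84). The C1q pairs were then at 0.76 to 0.84. Without SVZ 1 and hippocampus 3, Cx3cr1 had r of 0.07 to 0.72 to the other 8 genes, the 28 pairs a median of 0.56 (-0.11 to 0.84) and the C1q pairs 0.62 to 0.77.

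**Figure D3:**
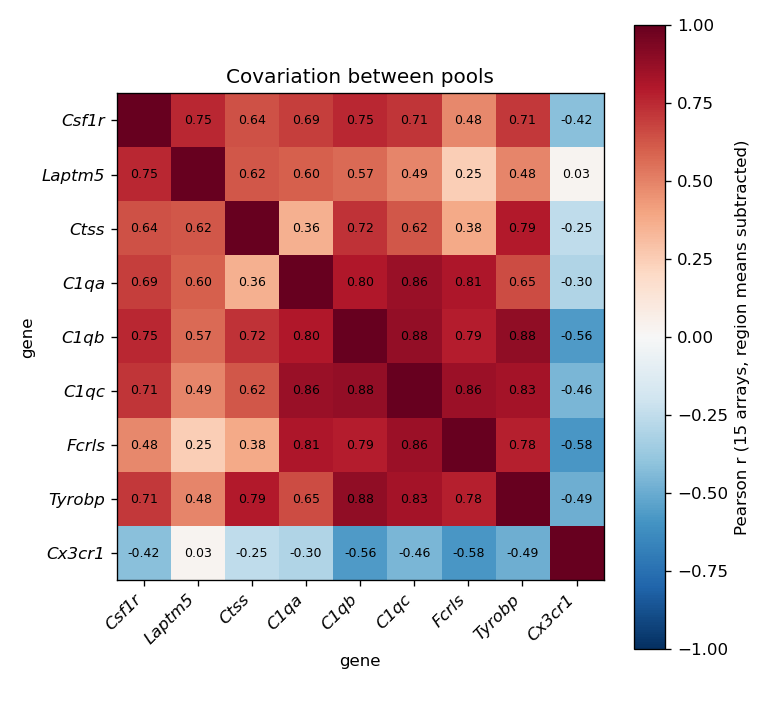
Pearson r between each pair of the 9 genes over 15 arrays after subtracting region means (colour scale from -1 to 1, value in each cell). Pairs of the 3 C1q chains, Fcrls and Tyrobp have r from 0.65 to 0.88, and the row of Cx3cr1 runs from -0.58 to 0.03.

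The genes whose pattern was most like the mean of the 9 included several of macrophages. The highest r belonged to Pf4 (0.93), a chemokine gene of platelets and border macrophages, then Lyz2 (0.91), a lysozyme gene of myeloid cells, Plek (0.90), F13a1 (0.89), Cd53 (0.88), Lyz1 (0.87), Mlec (0.86), Srgn (0.85), Lcp1 (0.85) and Larp7 (0.85). Of these 10, Pf4 and F13a1 stand on the list of border macrophages and Cd53 on that of other microglial genes. The other 2 genes of that microglial list with a mean above 3 did not follow the 9, with r of 0.05 for Itgb5 and -0.27 for Mertk. Astrocyte genes had r from -0.62 (Fgfr3) to 0.12 (Gfap), among them Slc1a3 at -0.54, Gja1 at -0.52 and Glul at -0.50. Only Gfap and Gjb6 (0.07) were positive. What set these values was not tested. Mlec and Larp7 were lower in SVZ than in cerebellum on average (-0.91 and -0.88, adjusted p = 0.305 and 0.435). Lcp1, which encodes the leukocyte actin-bundling protein plastin, rose in SVZ by 4.06 (adjusted p = 0.0142). Pf4 read 1.94, 4.81, 7.28, 6.95 and 7.86 in the SVZ pools, 0.84, 4.16, 6.26, 1.19 and 3.11 in the hippocampus pools and 0.97, 1.08, 3.85, 0.78 and 2.07 on the cerebellum arrays. It was thus low on SVZ 1 and high on hippocampus 3 and cerebellum 3, like most of the 9 genes.

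Border macrophage genes were present beside the microglial ones. Of 14 measured, 9 exceeded 3 on at least 1 SVZ array, 7 on a hippocampus array and 2 on a cerebellum array. The summed level of the list was 5.31 to 9.70 on SVZ arrays, 5.07 to 8.71 on hippocampus arrays and 4.74 to 6.04 on cerebellum arrays (log2), highest on SVZ 5, hippocampus 3 and cerebellum 3. F13a1, the gene of the coagulation factor XIII A chain, rose in SVZ by 2.85 ± 0.78 (adjusted p = 0.0488), and the other 13 did not pass. The median difference of the list was 1.74 in SVZ and 0.71 in hippocampus, and 0 of 14 passed in hippocampus, where H2-Aa (0.61 ± 0.23, adjusted p = 0.157) and F13a1 (1.60 ± 0.78, adjusted p = 0.268) had the smallest p. The mannose receptor gene Mrc1 read 0.69, 5.78, 7.09, 6.56 and 7.80 in SVZ, 1.33, 4.27, 7.90, 4.25 and 3.63 in hippocampus and 1.06, 1.26, 4.40, 1.02 and 1.69 in cerebellum, chosen here after its values were seen. H2-Aa, H2-Ab1, H2-Eb1 and Siglec1 stayed under 3 on every array. The part of border macrophages in the 9 genes was not tested.

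Further genes of resident microglia gave a thinner picture. Of 33 measured, 12 stayed under 3 on every array, among them the microglial marker genes Tmem119, Siglech and Gpr34, the integrin gene Itgam and the transcription factor genes Spi1, which encodes PU.1, Irf8 and Ikzf1. The summed level of the list was 8.02 to 9.88 on SVZ arrays, 7.65 to 8.67 on hippocampus arrays and 7.09 to 7.55 on cerebellum arrays. Above 3 on at least 1 array were 17 of the 33 in SVZ, 12 in hippocampus and 5 in cerebellum. The microglial marker gene P2ry12 averaged 1.52 ± 0.54 in SVZ, 1.98 ± 1.10 in hippocampus and 1.54 ± 0.46 in cerebellum (SD, n = 5 each). Its SVZ difference from cerebellum was -0.02 ± 0.45 (adjusted p = 0.988, limma). In SVZ against cerebellum 2 of 33 rose, Sall1 and Fcgr3. All differences but that of P2ry12 were positive, 32 of 33, against 10279 of all 18193 genes. Blood leukocyte genes, under 3 on every array, had 11 of 12 positive as well. Array medians also differed, at 1.20 to 1.31 on SVZ arrays and 1.12 to 1.17 on cerebellum arrays. How far background levels set these signs was not tested. For 7 of 33 every SVZ array lay above every cerebellum array, which held for 2.6% of all genes. Near background were Ptprc (lowest SVZ value 0.94, highest cerebellum value 0.90), Cd33 (0.84 and 0.75) and Olfml3 (1.62 and 1.29). Mertk separated at higher levels (6.70 and 6.20). Aif1 had the largest difference after Sall1, 3.03 ± 0.85, and did not pass (adjusted p = 0.0528). Fcgr3, an Fc receptor gene, read 2.08, 3.32, 4.27, 3.21 and 5.77 on the SVZ arrays and between 1.53 and 2.04 on the cerebellum arrays, with a difference of 1.93 ± 0.49 (adjusted p = 0.0343). In SVZ against hippocampus 0 of 33 passed, and Fcgr3 (1.88 ± 0.49, adjusted p = 0.425) and P2ry13, a purine receptor gene (1.71 ± 0.58, adjusted p = 0.543), had the smallest p.

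Sall1, a transcription factor gene of microglia that neural progenitors of the mouse also use, was higher by 3.21 ± 0.56 for SVZ (adjusted p = 0.00385) and by 2.35 ± 0.56 for hippocampus (adjusted p = 0.0274). It read 4.34, 2.58, 4.89, 5.79 and 3.69 in the SVZ pools, 4.01, 3.22, 1.62, 4.34 and 3.81 in the hippocampus pools and 1.33, 1.13, 1.06, 0.99 and 0.74 on the cerebellum arrays. Its lowest hippocampus value fell on hippocampus 3, the array at which 6 of the 9 microglial genes had their highest. In SVZ 1, low in 7 of the 9, Sall1 stood at 4.34.

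**Figure D4:**
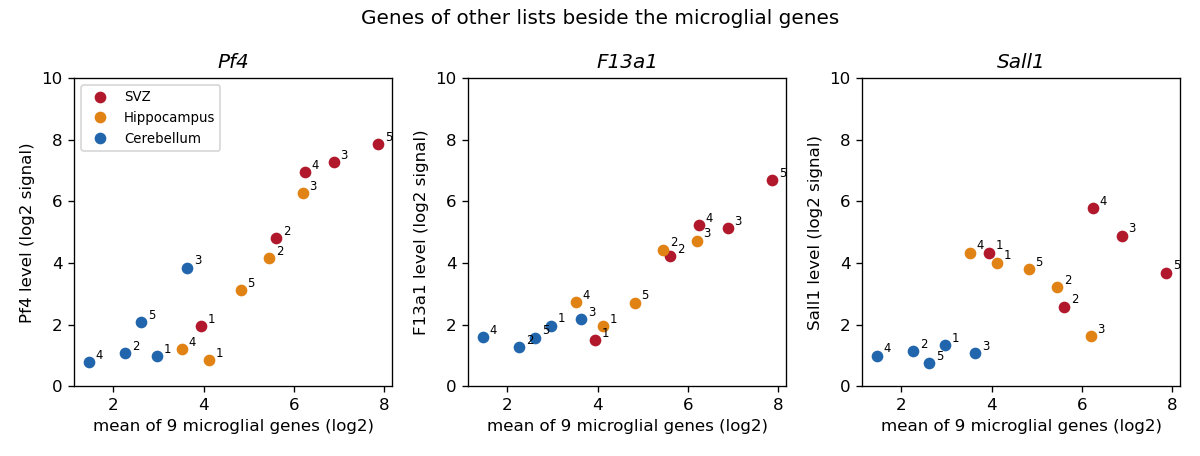
Level of Pf4, F13a1 and Sall1 (vertical axes, log2 signal) against the mean of the 9 microglial genes (horizontal axis, log2 signal) on the 15 arrays, coloured by region and numbered by replicate. Pf4 and F13a1 read highest on SVZ 5, where the microglial mean is 7.86, while Sall1 has its lowest hippocampus value, 1.62, on hippocampus 3.

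Blood leukocyte genes read at background. All 12 measured genes of monocytes, neutrophils and lymphocytes stayed under 3 on every array, Ccr2, S100a8, S100a9 and Cd3e among them, and 0 passed in any comparison by limma. The smallest p in SVZ against cerebellum belonged to Ms4a1 (0.36 ± 0.16, adjusted p = 0.211) and Ccr2 (0.46 ± 0.24, adjusted p = 0.285). Of 18 genes linked to microglial activation 0 passed either, with Cxcl16 at 0.74 ± 0.23 (adjusted p = 0.0855) and Cst7 at 0.57 ± 0.19 (adjusted p = 0.102) in SVZ against cerebellum. Both stayed under 3 on every array, as 9 of the 18 did. The largest rises there were in Ccl2 (2.80 ± 1.07, adjusted p = 0.153) and Il1b (2.17 ± 0.97, adjusted p = 0.215), while Axl was lower (-2.19 ± 0.77, adjusted p = 0.120). Region-centred r to the mean of the 9 was 0.77 for Il1b, 0.74 for Ccl2, 0.59 for Nfkbia, 0.12 for Apoe and -0.17 for Axl, the members with a mean above 3. The smallest p between hippocampus and cerebellum belonged to Apoe, the apolipoprotein gene that astrocytes also express (0.58 ± 0.19, adjusted p = 0.105), and to Ccl3, a chemokine gene (2.24 ± 1.04, adjusted p = 0.246).

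Markers of other brain cells moved with region too. Of 16 measured genes of endothelial cells and pericytes, 2 were higher in SVZ, Pdgfrb (2.88 ± 0.62, adjusted p = 0.0145) and Slc2a1 (1.80 ± 0.37, adjusted p = 0.0108), and Slc2a1 was higher in hippocampus (1.66 ± 0.37, adjusted p = 0.0185). The summed level of that list was 9.65 to 11.35 on SVZ arrays, 9.09 to 10.64 on hippocampus arrays and 8.31 to 8.45 on cerebellum arrays, and Pecam1, Cdh5, Tie1 and Anpep stayed under 3 on every array. The list was lowest among SVZ arrays on SVZ 1, as the summed microglial genes were, and highest on SVZ 2, hippocampus 2 and cerebellum 5, while those peaked on SVZ 5, hippocampus 3 and cerebellum 3. Over the 15 region-centred arrays, r to the mean of the 9 was 0.74 for Vtn, 0.58 for Rgs5, 0.02 for Pdgfrb and -0.15 for Slc2a1, the members of that list with a mean above 3. Choroid plexus genes ran 6.25 to 10.37 on SVZ arrays, 11.19 to 14.02 on hippocampus arrays and 7.04 to 14.04 on cerebellum arrays, a different order of regions from that of the microglial genes, and 0 of 8 passed in any comparison by limma. Among oligodendrocyte precursor genes 2 of 8 were higher in SVZ, the transcription factor genes Olig1 (4.52 ± 0.28, adjusted p = 5.11e-07) and Olig2 (1.03 ± 0.23, adjusted p = 0.0158), and Olig1 was higher in hippocampus (4.02 ± 0.28, adjusted p = 1.23e-06). Olig2 itself stayed under 3 on every array, as did Pdgfra, Sox10, Gpr17, Matn4 and Lhfpl3. Of 11 oligodendrocyte genes 1, the myelin enzyme gene Cnp, was lower in SVZ (-2.02 ± 0.26, adjusted p = 0.000315). Cnp was likewise lower in hippocampus (-2.97 ± 0.26, adjusted p = 8.26e-06). Most of that list went the other way: against cerebellum, 9 of the 11 differences were positive in SVZ (median 0.14) and 9 in hippocampus (median 0.16). Of all genes, 56.5% and 55.8% were positive in these comparisons. Of the 12 blood leukocyte genes, all under 3 on every array, 11 and 10 were positive. Mog, Mag, Cldn11, Ugt8a, Ermn and Opalin stayed under 3 on every array. Of 13 neuronal genes 2 were lower in SVZ, Syp (-2.16 ± 0.51, adjusted p = 0.0249) and Map2 (-1.03 ± 0.28, adjusted p = 0.0434), and Map2 was lower in hippocampus. Of 8 ependymal genes 0 passed by limma, with the smallest p in SVZ against cerebellum for Tmem212 (0.27 ± 0.17, adjusted p = 0.368) and Mia (-1.50 ± 0.93, adjusted p = 0.370). The 3 red blood cell genes stayed under 3 on every array. The part of these cells in the microglial differences was not tested.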

How the data were processed

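Gene expression was measured on 15 Affymetrix mouse arrays, 5 per region, grouped by the sample titles. Per the submitters' processing notes, the values were normalized with RMA. The deposited values were read as log2 signal, since array maxima lay near 15 and no log base is given. The RMA version is not stated in them. Without detection calls, 3 was set as a dim level, and 1 value was below 0 and was kept. Of 45101 probe sets, 34945 with 1 gene symbol were used, with symbols updated through Entrez identifiers for 34754, and 932 with several symbols, 9211 not listed and 64 controls were left out. The probe set with the highest mean stood for each of 18193 genes. limma 3.58.1 (R 4.3.3) fitted region over all 15 arrays, with Benjamini-Hochberg adjustment over all genes and calls at an adjusted p under 0.05. The small number of arrays limits precision.

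The members and gene lists were chosen with earlier results of these data known. Named genes were the 9 members, the sort genes, from each list up to 2 called genes per direction by size, or those of the 2 lowest p if 0 were called, and the 10 genes with the highest r to the mean of the 9. Not every list gene so picked is printed. Alternatives were other normalizations, filters, probe set rules, weights, spreads, thresholds, a replicate block, a spike-in covariate (24 probe sets) and left-out arrays. Promoter windows are RefSeq's, matched by symbol for 6 of 9 genes, with chromosome 18, that of Csf1r, left out. Figures used matplotlib 3.10.9.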

Additional observations from a re-analysis of the deposited data

How the results depend on the processing

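Every difference of the 9 genes against cerebellum kept its sign under all alternatives run. In SVZ against hippocampus 2 changed sign, C1qb at -0.17 without SVZ 5 (up to 2.14 without SVZ 1) and Cx3cr1 at -0.0025 without SVZ 1 and hippocampus 3, neither called. Of the 9 genes, 5 were called in SVZ against cerebellum. Leaving out 1 array gave 3 to 8, array weights 8, leaving out SVZ 1 with hippocampus 3 8, leaving out cerebellum 4 with cerebellum 5 2 (Csf1r and Laptm5), an adjusted p under 0.01 2, and the spike-in covariate 0. In hippocampus against cerebellum 2 were called. Leaving out 1 array gave 1 to 2, leaving out SVZ 1 with hippocampus 3 1, and 0 were called with the mean of probe sets, the spike-in covariate, an adjusted p under 0.01 and without cerebellum 4 and cerebellum 5. In SVZ against hippocampus 0 were called under each alternative.

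With dim genes left out, C1qa, C1qc and Cx3cr1 were not tested. Over all genes, 1002 were called in SVZ against cerebellum. The count was 609 with quantile normalization, 1561 with array weights, 191 with the spike-in covariate, 368 without cerebellum 4 and cerebellum 5, 388 at an adjusted p under 0.01, 584 at more than 4-fold with p under 0.01, and 612 to 1094 without 1 array. In hippocampus against cerebellum 869 were called, and 492, 220, 358, 365, 522 and 545 to 1162 under the same settings without array weights. In SVZ against hippocampus 4 were called. The count was 0 with dim genes left out, the mean of probe sets, a trended spread and only the 2 regions. It was 2 with every probe set tested and with the spike-in covariate, 1 without cerebellum 4 and cerebellum 5 and at an adjusted p under 0.01, 9 without SVZ 1 and hippocampus 3, 65 at more than 4-fold with p under 0.01, and 1 to 11 without 1 array. The cause of these shifts was not tested beyond the fewer arrays or stricter thresholds used. With the replicate number as a block, 7 of the 9 genes were called in SVZ against cerebellum, C1qc (adjusted p = 0.0457) and Tyrobp (0.0357) besides the 5, and 2 in hippocampus against cerebellum, but no label ties the numbers to shared mice. Deviations from the region means correlated above 0.1 in 4 of 15 same-numbered pairs (median 0.06) and in 1 of 60 other pairs (median -0.01). Same-numbered pairs thus passed 0.1 more often, though the highest r, 0.39, lay in a pair of other numbers. What arrays of 1 number share cannot be told from the labels. The main fit therefore left the numbers out, and the block fit is given beside it. With quantile normalization 213 of the 609 calls were higher in SVZ, against 188 of 1002, and 155 of the 492 were higher in hippocampus, against 147 of 869.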
